A study of Mus musculus with 8 samples.

Results

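The *Dlk1*-*Dio3* cluster is an imprinted domain on mouse chromosome 12, and its expression was examined in 8 individual iPSC clones. Its members were taken as the noncoding RNA genes *Meg3*, *Rian* and *Mirg* and the coding genes *Dlk1*, *Rtl1* and *Dio3*, found by matching the RefSeq identifiers of the count table to gene symbols. They are 6 of 21427 named genes and 12 of 27052 RefSeq records. Of these, 7 records of 5 genes passed the expression filter (5 or more reads in 4 or more libraries) and 5 records, all of *Dlk1*, did not. For *Meg3* and *Dlk1*, which have several records, values are of the record most counted on average, and the sum over records is stated beside it.

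The clones were derived from embryonic fibroblasts (MEFs) of mixed strain background that carried an Oct4-GFP reporter and were reprogrammed by retroviral OCT4, SOX2, KLF4 and c-MYC. Of the 8 clones, 4 (TKO 35, 37, 47 and 48) lack functional *Miwi*, *Mili* and *Miwi2*, the PIWI genes of the mouse, and 4 (Ctrl 33, 34, 41 and 43) are controls, called triple heterozygotes from littermates in the study's methods and wild type or heterozygous in its legends. All were below passage 10 and were grown in ESC medium with LIF, and colonies had been picked onto inactivated MEF feeder cells. Each library is from 1 clone, and the labels do not say which embryo a clone came from, so the p-values measure the spread between clones. The clone numbers fall into the thirties (Ctrl 33 and 34, TKO 35 and 37) and the forties (Ctrl 41 and 43, TKO 47 and 48). These sets are called clone series here, and nothing in the labels explains the numbering.

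In an imprinted domain, the copy of a gene inherited from the mother and the copy inherited from the father are used differently. Here *Meg3* (also called *Gtl2*), *Rian* and *Mirg* are transcribed from the maternal chromosome, in the same direction, and carry many microRNAs and small nucleolar RNAs, while *Dlk1*, *Rtl1* and *Dio3* are transcribed from the paternal chromosome. A control region between *Dlk1* and *Meg3*, methylated on the paternal chromosome, sets which copy is used, and silencing of the maternal noncoding genes is a known defect of some mouse iPSC clones. The deposited counts do not tell the parental copies apart.

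Total counts ran from 8983203 (Ctrl 33) to 52457455 (TKO 37), and the thirties series holds both the shallowest and the deepest libraries. Expression is given as the normalized read count, the count divided by a median-ratio size factor (0.369 to 2.07). Of the targeted genes, *Miwi* (Piwil1) had 3 to 20 reads per library. Its normalized count was 8.13 to 28.8 in Ctrl and 2.41 to 4.53 in TKO clones. *Mili* (Piwil2) had 758 to 1028 normalized counts in Ctrl and 3845 to 10084 in TKO clones. The *Mili* allele lacks some exons only, so a count over the whole record does not check the deletion, and *Miwi2* could not be matched by symbol. Pluripotency markers were abundant, with summed levels of 121418 to 170739 counts over 10 genes, but *Esrrb*, with 2 records, had no more than 6 reads in all. Fibroblast markers were abundant too (22038 to 66487 counts summed over 12 genes). In bulk RNA a change in the share of a cell type cannot be told apart from a change in RNA per cell.

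*Meg3*, the first of the maternal noncoding genes, spans 30.7 kb of mm9 (chr12:110779211-110809936, plus strand). The RefSeq promoter window of its 5′-most start is shown because the noncoding genes downstream changed together with *Meg3* between the clone series, as described below. It covers 250 bases before and 50 after the start (GRCm38.p6 chr12:109540746-109541045, plus strand), and the same 300 bases occur once in mm9, at chr12:110778956-110779255. Capitals mark a CCAAT box at -100, the cyclic AMP response element TGACGTCA at -57 and, near the start, TATAAA on both strands, overlapping in TTTATATAAA.
Meg3 promoter: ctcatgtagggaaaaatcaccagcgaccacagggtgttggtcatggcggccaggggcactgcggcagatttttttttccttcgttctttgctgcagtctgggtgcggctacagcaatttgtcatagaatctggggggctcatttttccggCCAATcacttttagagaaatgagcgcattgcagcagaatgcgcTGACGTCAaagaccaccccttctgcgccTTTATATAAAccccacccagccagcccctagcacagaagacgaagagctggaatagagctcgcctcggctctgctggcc
Searched on both strands, TGACGTCA is in 588 of 32851 RefSeq promoter windows of this length (1.79%), TATAAA in 13.6% and CCAAT in 37.4%. Positions count from the first transcribed base as 1, without a base 0, and give the first base of a motif. The windows of *Dlk1*, *Rian*, *Mirg* and *Dio3* do not hold TGACGTCA. These are matches of letters only, and binding was not measured.

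The normalized count of *Meg3* (NR_003633, 11439 bases) was 1281, 1019, 1416 and 1565 in Ctrl 33, 34, 41 and 43. It was 607, 720, 1396 and 1460 in TKO 35, 37, 47 and 48. TKO 35 and 37 were the lowest clones, and the forties clones of both genotypes lay together above all thirties clones. Over its 3 records *Meg3* summed to 1158 to 2796 counts. NR_003633 held 49.9 to 60.1% of its reads, the shorter NR_027652 36.6 to 47.3% and NR_027651 1.93 to 3.30%. The rule for reads shared by several records is not stated, so the split between these records is uncertain.

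*Rian* spans 57.8 kb and starts 62.9 kb downstream of *Meg3* (chr12:110842155-110899919, plus strand), and is the host of C/D box small nucleolar RNAs. It had the highest level of the cluster. Its only record (NR_028261, 3584 bases) had 3353, 3094, 5737 and 6497 normalized counts in Ctrl 33, 34, 41 and 43. In TKO 35, 37, 47 and 48 it had 1694, 2194, 5495 and 6175. Each forties clone exceeded each thirties clone, and no clone lost *Rian* reads altogether, the lowest library holding 1238.

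*Mirg* lies 194 kb downstream of the *Meg3* start (chr12:110973191-110987665, plus strand) and contains 10 annotated microRNA hairpins, 9 of them on its own strand. *Mirg* (NR_028265, 1315 bases) had 125, 102, 369 and 392 normalized counts in Ctrl 33, 34, 41 and 43. It had 65.1, 99.9, 403 and 381 in TKO 35, 37, 47 and 48. The gap between the series was wider as a ratio than for the other noncoding genes, with 125 as the highest thirties value and 369 as the lowest forties value.

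*Rtl1* (chr12:110827404-110838540, minus strand) encodes a retrotransposon-derived Gag-Pol-like protein needed in the placenta. The maternal strand opposite to it carries 6 microRNA hairpins with 11 mature microRNAs in RefSeq. All 11 are fully complementary to the *Rtl1* strand in mm9, which follows from their position opposite to it. They have 11 different seeds. One per hairpin is shown, with the seed (bases 2 to 8) in capitals, because reads of either strand may enter the *Rtl1* count.
mmu-miR-431-5p: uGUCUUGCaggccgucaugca
mmu-miR-433-3p: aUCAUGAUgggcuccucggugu
mmu-miR-127-3p: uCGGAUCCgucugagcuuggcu
mmu-miR-434-3p: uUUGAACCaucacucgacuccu
mmu-miR-432: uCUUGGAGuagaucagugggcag
mmu-miR-136-5p: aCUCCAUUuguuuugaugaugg
The study's text does not give a strand rule for counting, so reads of *Rtl1* and of its antisense transcript cannot be told apart. The antisense record 6430411K18Rik (NR_002848) is listed at 0 in all libraries. The normalized count of *Rtl1* (NM_184109, 5235 bases) was 32.5, 40.3, 36.3 and 38.7 in Ctrl 33, 34, 41 and 43. It was 18.7, 22.2, 46.1 and 48.7 in TKO 35, 37, 47 and 48, from 12 to 57 reads per library. The Ctrl clones lay close together, the thirties TKO clones below them and the forties TKO clones above them.

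*Dio3* (chr12:111517278-111519307, plus strand) encodes the type 3 deiodinase, which inactivates thyroid hormone. Its record (NM_172119, 1872 bases) had 35.2, 33.1, 24.9 and 13.2 normalized counts in Ctrl 33, 34, 41 and 43. It had 13.6, 8.69, 17.0 and 20.5 in TKO 35, 37, 47 and 48. With 13 to 24 reads per library, the Ctrl and TKO ranges overlapped. *Dio3os*, the noncoding gene antisense to the *Dio3* region (NR_002866), had 3 to 17 reads per library.

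*Dlk1* (chr12:110691033-110701546, plus strand) encodes a transmembrane relative of the Notch ligands and lies 88.2 kb upstream of *Meg3*. Its 5 records held 1 read in all libraries together, in TKO 35, and are listed at 0 elsewhere. This cannot be read as an absence of *Dlk1* RNA. *Hnrnpd* and *Nolc1*, which most cells use and which have 4 records each here, are at 0 reads as well, as is *Bag1* with 2 records. Genes with 1 coding record had a median of 1260 reads over the 8 libraries, against 128 for genes with 2 or 3 records and 44 for genes with 4 or more. Totals of 8 reads or fewer were less tied to the number of records. They were found for 20.2% of genes with 1 record, 20.2% with 2 or 3 and 32.9% with 4 or more. Why *Dlk1* is at this floor was not tested. No fold change is given for *Dlk1*, and genes with a pattern like it could not be sought.

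Per kilobase of record, the order of levels in Ctrl clones was *Rian* (1303 ± 475 normalized counts per kb), *Mirg* (188 ± 118), *Meg3* (115 ± 20.2), *Dio3* (14.2 ± 5.32) and *Rtl1* (7.06 ± 0.649, SD, n = 4 each). In TKO clones the order was the same, with 1085 ± 634, 180 ± 136, 91.4 ± 38.9, 7.99 ± 2.70 and 6.48 ± 2.99 counts per kb for these genes (SD, n = 4). *Rian* exceeded every other member in every clone. *Mirg* and *Meg3* overlapped, as did *Dio3* and *Rtl1*. With all *Meg3* records summed over the same length, *Meg3* had 198 ± 38.5 counts per kb in Ctrl and 175 ± 75.8 in TKO clones (SD, n = 4), so its order with *Mirg* depended on the choice of record. By series the order of *Mirg* and *Meg3* changed, from 74.5 ± 18.7 and 79.3 ± 26.6 counts per kb in the thirties clones to 294 ± 11.1 and 128 ± 6.59 in the forties clones (SD, n = 4). The summed *Meg3* records had 139 ± 37.5 and 235 ± 9.46 counts per kb in these series (SD, n = 4).

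**Figure D1:**
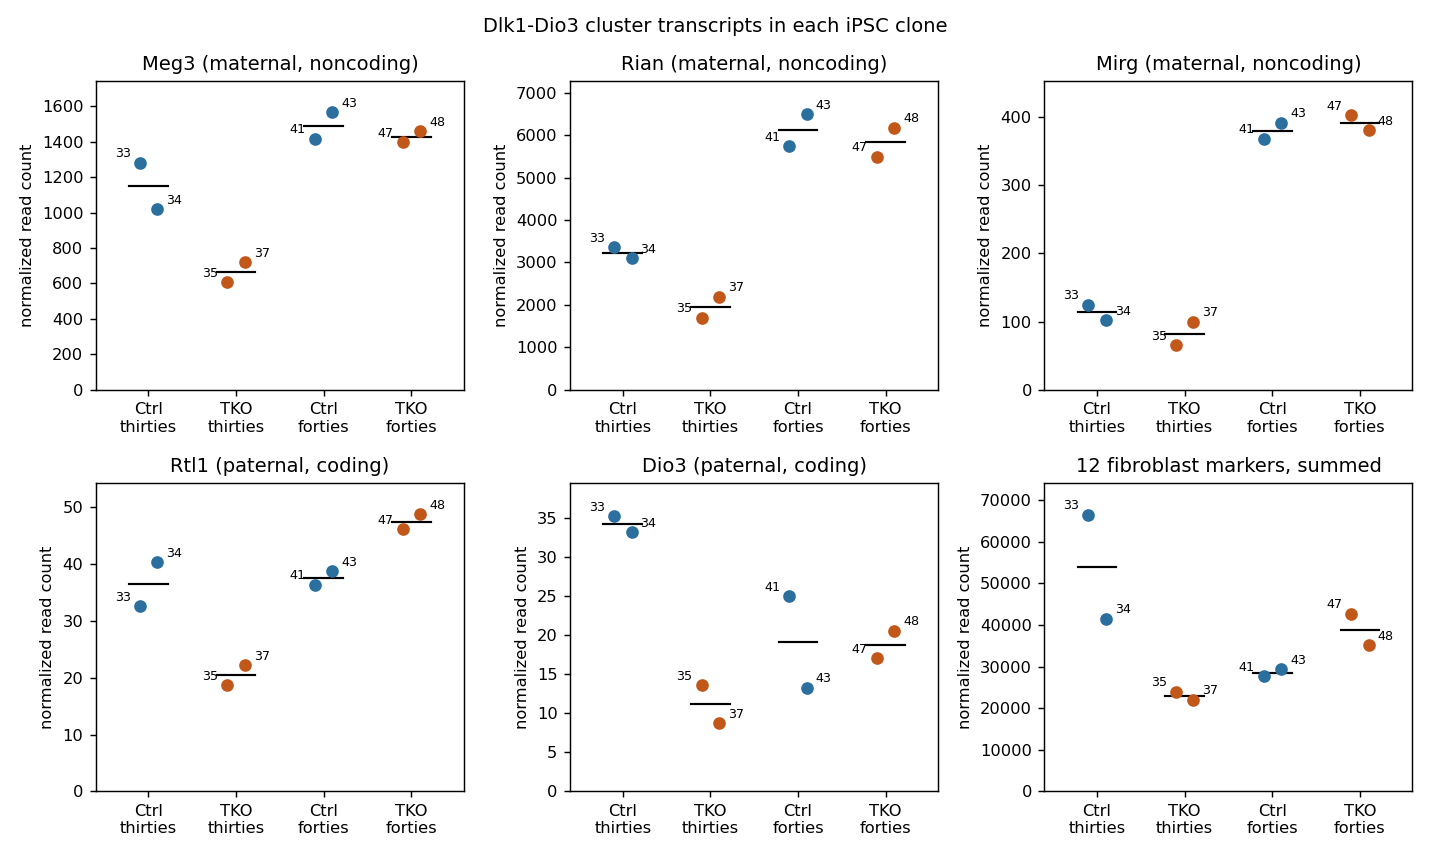
Normalized read count (linear axes from 0) of each member that passed the filter and the sum of 12 fibroblast markers in each clone, by genotype and clone series. Points are single clones with their number, and bars are means of 2 clones. *Meg3*, *Rian* and *Mirg* are higher in all 4 forties clones than in any thirties clone, and *Rtl1* and *Dio3* are not.

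The first comparison asks whether the loss of the PIWI proteins went with a change in the cluster. By edgeR's quasi-likelihood test none of the 5 testable members differed between TKO and Ctrl clones, while 39 of 16235 records (0.24%) had an adjusted p under 0.05. No member was among the 2405 records (14.8%) with an unadjusted p under 0.05. On the log2 scale, TKO over Ctrl, *Meg3* changed by -0.34 (SE 0.28, adjusted p = 0.583), *Rian* by -0.27 (SE 0.42, adjusted p = 0.780) and *Mirg* by -0.08 (SE 0.63, adjusted p = 0.966). The paternal gene *Rtl1* had a log2 difference of -0.15 (SE 0.35, adjusted p = 0.861) and *Dio3* of -0.81 (SE 0.39, adjusted p = 0.361). The summed *Meg3* records changed by -0.18 (SE 0.29, adjusted p = 0.774). The median over all records was -0.0053. An exact permutation test (two-sided, 70 arrangements of the clones), which cannot give a p below 0.0286, gave 0.314, 0.457, 0.743, 0.486 and 0.143 for *Meg3*, *Rian*, *Mirg*, *Rtl1* and *Dio3*. With the clone series in the model, which called 926 records (5.7%), the standard errors were smaller and again no member passed. The log2 difference was then -0.42 for *Meg3* (SE 0.16, adjusted p = 0.131), -0.40 for *Rian* (SE 0.14, adjusted p = 0.126), -0.17 for *Mirg* (SE 0.18), -0.21 for *Rtl1* (SE 0.28) and -0.81 for *Dio3* (SE 0.38). *Meg3* and *Rian* had an unadjusted p under 0.05 in that model, as did 25.5% of records. The shorter *Meg3* record NR_027652 changed by -0.05 there (SE 0.14, adjusted p = 0.868). How far clones of the same genotype differed depended on the gene. The SD of log2 *Mirg* was 1.01 in Ctrl and 1.33 in TKO clones, at the 94.2 and 98.2 percentiles of all tested records. For *Meg3* it was 0.26 and 0.65, at the 44.8 and 84.7 percentiles. For *Rtl1* it was 0.13 and 0.69, at the 15.8 and 86.6 percentiles.

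The spread of the maternal noncoding genes followed the clone series. In a model with genotype and series, all 3 maternal noncoding genes were higher in the forties than in the thirties clones, by a log2 fold change of 0.75 for *Meg3* (SE 0.16, adjusted p = 0.0114), 1.26 for *Rian* (SE 0.15, adjusted p = 0.00111) and 2.02 for *Mirg* (SE 0.18, adjusted p = 0.000497). These are 1.68-fold, 2.39-fold and 4.05-fold differences. Many other records differed as well, 3149 of 16235 (19.4%) in either direction and 1597 (9.84%) upwards. An increase of at least 4-fold with an adjusted p under 0.05 was found in 150 records (0.924%), *Mirg* among them. By the size of the increase alone, whatever the p-value, *Mirg* ranked 145 of 16235. All forties clones exceeded all thirties clones for each of the 3 noncoding genes, a separation found upwards in 8.35% of records. *Rtl1*, with a log2 difference of 0.67 (SE 0.28, adjusted p = 0.113), and *Dio3*, with -0.01 (SE 0.43, adjusted p = 0.993), did not pass. The second-largest *Meg3* record, NR_027652, was higher by 0.89 (SE 0.14, adjusted p = 0.00381), and the summed *Meg3* records by 0.79 (SE 0.14, adjusted p = 0.00693).

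The level of *Meg3*, *Rian* and *Mirg* summed per clone was 7822 ± 519 in the forties and 3589 ± 1094 in the thirties clones (SD, n = 4). The 3 genes kept their call when any 1 clone was left out, with adjusted p up to 0.0498 for *Meg3* (edgeR's quasi-likelihood test). Within Ctrl clones alone, in a model with 4 groups of genotype and series, *Rian* (log2 0.93, SE 0.14, adjusted p = 0.00904) and *Mirg* (log2 1.76, SE 0.24, adjusted p = 0.00708) were higher in the forties, in a comparison in which 6.58% of records were called. *Meg3* did not pass there (log2 0.38, SE 0.14, adjusted p = 0.144), but its second-largest record, NR_027652, did (log2 0.58, SE 0.14, adjusted p = 0.0440). *Rtl1* (log2 0.02, SE 0.29, adjusted p = 0.997) and *Dio3* (log2 -0.83, SE 0.41, adjusted p = 0.244) did not pass within Ctrl clones. Within TKO clones, where 23.9% of records were called, *Meg3* (log2 1.11, SE 0.14, adjusted p = 0.00149), *Rian* (log2 1.59, SE 0.14, adjusted p = 0.000342), *Mirg* (log2 2.24, SE 0.22, adjusted p = 0.000623) and *Rtl1* (log2 1.21, SE 0.26, adjusted p = 0.0110) were all higher. *Dio3* did not pass within TKO clones (log2 0.77, SE 0.39, adjusted p = 0.183), and its direction was opposite to that within Ctrl clones.

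The noncoding genes did not change by the same factor. The log2 ratio of *Mirg* to *Meg3* reads within a library was -3.36, -3.32, -3.22 and -2.85 in Ctrl 33, Ctrl 34, TKO 35 and TKO 37. It was -1.94, -1.996, -1.79 and -1.94 in Ctrl 41, Ctrl 43, TKO 47 and TKO 48. The mean rose by 1.27 from -3.19 ± 0.23 to -1.92 ± 0.09 (SD, n = 4). The ratio of *Rian* to *Meg3* was higher in the forties by 0.51 and that of *Mirg* to *Rian* by 0.76, again without overlap between the series. Each of these 3 ratios gave an exact two-sided permutation p of 0.0286, the smallest the design allows, and 0.0286 after adjustment. Between genotypes the exact permutation p-values were 0.857 for *Rian* to *Meg3*, 0.514 for *Mirg* to *Meg3* and 0.571 for *Mirg* to *Rian*. The ratios do not depend on the size factors, and they were chosen for testing after the series difference of each gene had been seen.

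**Figure D2:**
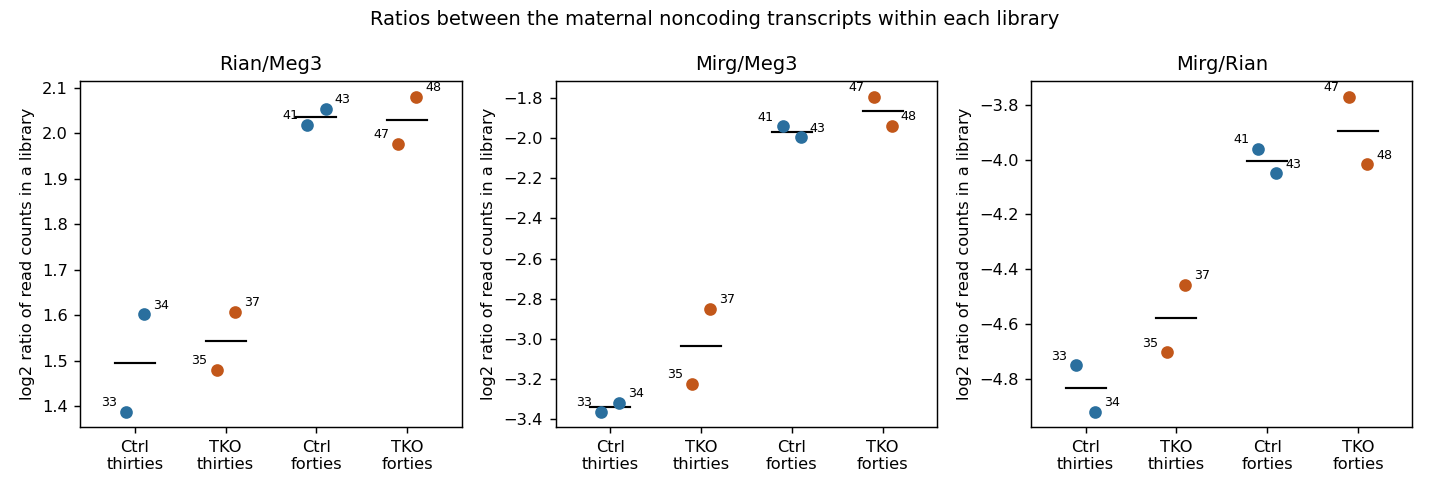
Log2 ratio of read counts between pairs of the maternal noncoding genes in each library, by genotype and clone series. Points are single clones with their number, bars are means of 2 clones and the axes do not start at 0. For each pair the 4 forties clones lie above the 4 thirties clones, by a mean of 0.51, 1.27 and 0.76 from left to right.

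Within the thirties series alone the TKO clones had lower normalized counts of some members than the Ctrl clones. There both Ctrl libraries (8983203 and 17216692 counts in all) were shallower than both TKO libraries (45005422 and 52457455). Genotype and depth cannot be told apart in this series. In the model with 4 groups, *Meg3* was lower by a log2 of -0.79 (SE 0.15, adjusted p = 0.0128), *Rian* by -0.73 (SE 0.14, adjusted p = 0.0137) and *Dio3* by -1.61 (SE 0.40, adjusted p = 0.0342), in a comparison with 11.9% of records called. Before scaling, *Dio3* had 13 and 23 reads in Ctrl 33 and 34 and 24 and 18 in TKO 35 and 37. *Mirg* (-0.44, SE 0.24, adjusted p = 0.259) and *Rtl1* (-0.85, SE 0.29, adjusted p = 0.0844) did not pass. The call of *Meg3* held for NR_003633 only. Its records NR_027652 (-0.35, SE 0.14, adjusted p = 0.135) and NR_027651 (-0.68, SE 0.30, adjusted p = 0.163) did not pass. In the forties series, where 1.98% of records were called, the log2 differences were -0.06 for *Meg3*, -0.07 for *Rian*, 0.04 for *Mirg*, 0.34 for *Rtl1* and -0.02 for *Dio3*, with adjusted p from 0.509 to 0.990. Fitted on the 4 thirties clones only, *Rian* remained under the threshold (adjusted p = 0.0457), while *Meg3* (0.0502) and *Dio3* (0.0549) did not.

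The test of whether the genotype difference itself differed between the series called none of the members by edgeR's quasi-likelihood test, with 1.30% of records called. The differences of log2 fold change were 0.73 for *Meg3* (SE 0.20, adjusted p = 0.107), 0.66 for *Rian* (SE 0.19, adjusted p = 0.118), 0.48 for *Mirg* (SE 0.32, adjusted p = 0.460), 1.19 for *Rtl1* (SE 0.39, adjusted p = 0.146) and 1.60 for *Dio3* (SE 0.56, adjusted p = 0.176). At an unadjusted p under 0.05, which 18.7% of records had, 4 of the 5 members passed, all but *Mirg*. DESeq2 called *Meg3* (adjusted p = 0.0343) and no other member. TKO 35 and 37, the lowest clones for *Meg3* and *Rian*, lay below all other clones for 17.9% of records. For *Dio3* the highest clones were Ctrl 33 and 34 (35.2 and 33.1 counts), and TKO 35 (13.6) was above Ctrl 43 (13.2).

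**Figure D3:**
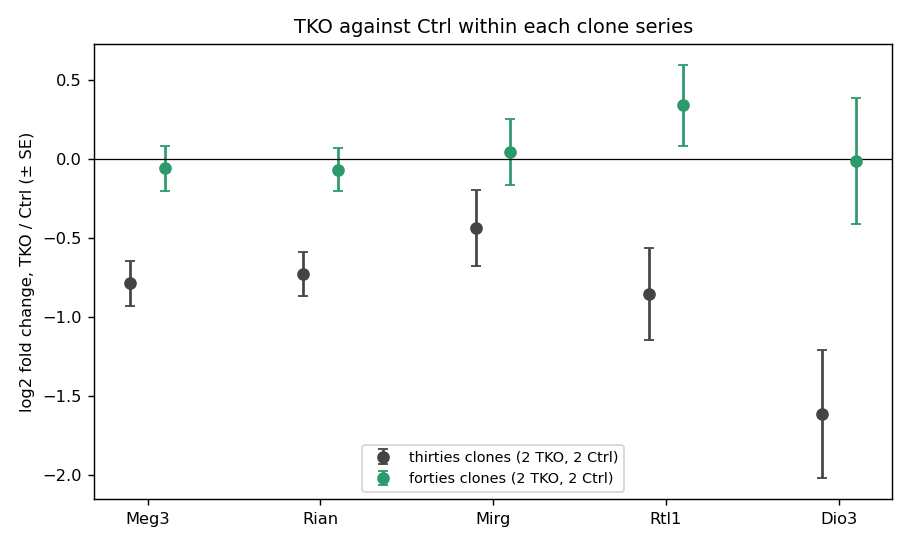
Log2 fold change of TKO over Ctrl with its standard error within each clone series, 2 clones against 2, from the model with 4 groups. In the thirties clones the 5 members lie between -1.61 and -0.44, and in the forties clones between -0.07 and 0.34.

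Markers of other cells also differed between clones, and their part in the result was not tested. The counts below stand against 19.4% of all records called between the series (9.84% of all records higher in the forties) and 1.30% called for the interaction. All 12 fibroblast markers passed the filter. Their summed level was 66487 and 41514 counts in Ctrl 33 and 34 and 23964 and 22038 in TKO 35 and 37. In Ctrl 41 and 43 it was 27714 and 29364, and in TKO 47 and 48 it was 42691 and 35138. TKO 35 and 37 were lowest for this sum and for *Meg3*, *Rian*, *Mirg* and *Rtl1*. The forties Ctrl clones had a lower sum than the thirties Ctrl clones and higher levels of *Meg3*, *Rian* and *Mirg*. Of the 12 genes, *Prrx1* and *S100a4* were higher in the forties clones. Within the thirties 9 of 12 were lower in TKO than in Ctrl clones, where 11.9% of all records were called. In the interaction test 6 of 12 passed (*Col1a2*, *Thy1*, *Postn*, *Twist2*, *Fbn1* and *S100a4*). The 6 neural markers summed to 2525 to 6606 counts in the thirties and 6307 to 8269 in the forties clones, with *Nes* and *Tubb3* higher in the forties. The 8 primitive endoderm markers summed to 251 to 330 counts in the thirties and 331 to 695 in the forties clones, with 4 of 7 tested genes higher (*Sox17*, *Foxa2*, *Sox7* and *Pdgfra*). The 6 trophoblast markers summed to 1277 to 5089 and 1895 to 10112 counts, and *Hand1* was lower in the forties. Of 9 tested pluripotency markers none was called between the series. Between genotypes 1 of 9 was called (11.1%, against 0.24% of all records), *Pou5f1*, which was lower in TKO clones (log2 -0.61, adjusted p = 0.0380). The study, which required a change of 2.5-fold, reported Oct3/4 as not affected. Reads of the retroviral and the endogenous gene cannot be told apart in this count.

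Of 16 tested genes on either side of the cluster, 2 (12.5%, against 9.84% of all records) were higher in the forties clones and none was lower, with a median log2 change of 0.01 (-0.0046 over all records). *Begain*, a gene of a postsynaptic scaffold-associated protein whose 5′ end lies at -488 kb from the start of *Meg3*, rose from 39.4 ± 9.30 to 75.9 ± 18.9 counts (SD, n = 4, log2 0.99, SE 0.24, adjusted p = 0.0191). *Dync1h1*, the cytoplasmic dynein heavy chain, 1060 kb downstream, rose by 0.37 on the log2 scale (SE 0.09, adjusted p = 0.0170). *Slc25a47*, at -690 kb, had the largest change of the 16 genes but did not pass (log2 1.11, SE 0.40, adjusted p = 0.0796). None of the 16 was called between TKO and Ctrl, where 0.24% of all records were.

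**Figure D4:**
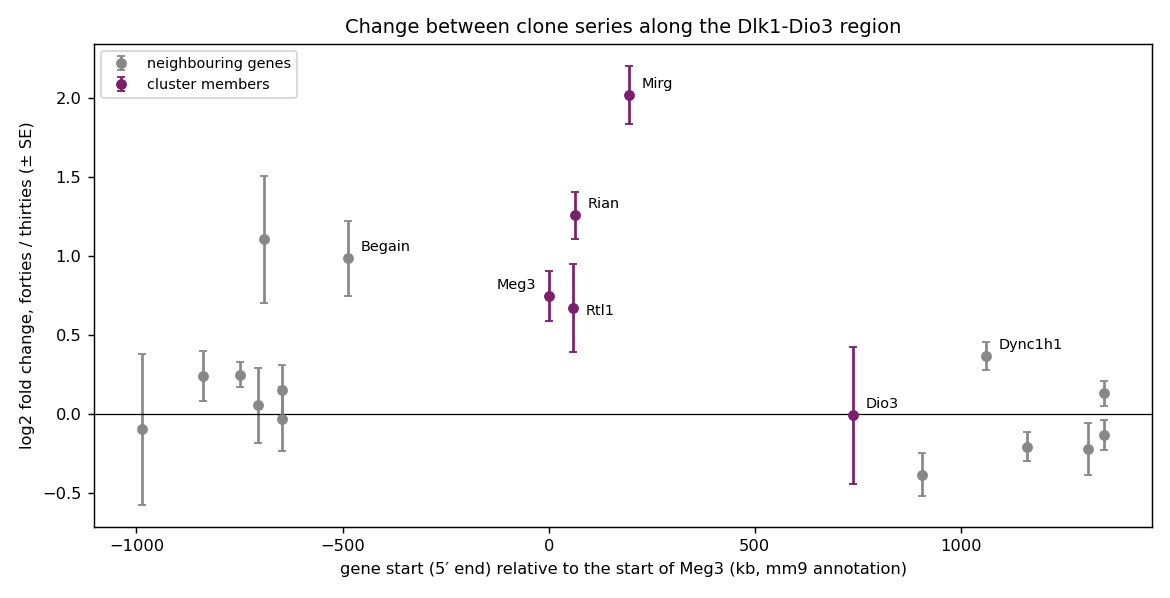
Log2 fold change of forties over thirties clones with its standard error against the distance of the gene start (5′ end) from the start of *Meg3* in kb (mm9 annotation), for 5 members (purple) and the neighbouring genes with mm9 coordinates (grey). *Mirg* (2.02) and *Rian* (1.26) stand above the neighbours, of which *Slc25a47* (1.11, SE 0.40) is highest. *Meg3* (0.75) lies below *Slc25a47* and *Begain* (0.99), and *Dio3* is at -0.01.

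Between *Dlk1* and *Dio3* the table holds 54 microRNA hairpin records of 61 to 124 bases, of which 43 are at 0 and none has more than 2 reads in a library. The 2 small nucleolar RNA records (AF357355 and AF357359) have 2 and 0 reads. The TruSeq RNA kit is not made for RNAs this short, and their levels were not measurable here.

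Of 18 tested regulators of imprints and DNA methylation none was called between TKO and Ctrl, with or without the series in the model (0.24% and 5.7% of all records). Between the series 2 of 18 were called (11.1%, against 19.4% of all records), of which *Ctcf*, the insulator protein, was higher in the forties (log2 0.29, SE 0.08, adjusted p = 0.0347) and *Dnmt3l*, a cofactor of the de novo DNA methyltransferases, was lower (log2 -0.75, SE 0.23, adjusted p = 0.0482). *Dnmt3l* had 94.8, 140, 270 and 207 counts in Ctrl 33, Ctrl 34, TKO 35 and TKO 37. It had 86.2, 97.8, 137 and 88.1 in Ctrl 41, Ctrl 43, TKO 47 and TKO 48, so the series overlapped. The median series change of the 18 genes was 0.05. *Uhrf1*, with 4 records, is listed at 0. *Setdb1* (3 records) and *Dnmt3b* (5 records) were tested by their most counted record, with 47 and 535 reads over the 8 libraries. For such genes the lack of a call is a weak result.

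Of 11 other imprinted genes tested, none was called between genotypes (0.24% of all records) and 2 (18.2%, against 9.84% of all records) were higher in the forties clones, with a median log2 of 0.40. With the series in the model *Mest* was lower in TKO clones (log2 -0.52, SE 0.12, adjusted p = 0.0411). *Mest*, a paternally expressed hydrolase gene, rose from 1927 ± 525 to 2855 ± 561 counts (SD, n = 4, log2 0.59, SE 0.12, adjusted p = 0.0104). *Nnat*, which encodes the small membrane protein neuronatin, rose from 6.06 ± 4.07 to 27.9 ± 6.42 counts (SD, n = 4, log2 2.11, SE 0.42, adjusted p = 0.00966). The part of the cell type marker differences above in these changes was not tested.

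The pathways on which the coding members act were also compared, and without the series in the model none of their genes was called between genotypes (0.24% of all records). With the series in the model *Pnma2*, of the Gag genes, was lower in TKO clones (log2 -1.54, SE 0.28, adjusted p = 0.0190). In the Notch pathway, which DLK1 is known to influence, 17 genes were tested and 3 were higher and 1 lower in the forties clones (23.5%, near the 19.4% of all records). The ligand gene *Dll1* fell by 2.02 on the log2 scale (SE 0.22, adjusted p = 0.000961), from 210 ± 61.4 to 51.1 ± 8.87 counts (SD, n = 4). The ligand gene *Jag1* (0.77, adjusted p = 0.00532), the target *Hes1* (0.52, adjusted p = 0.0307) and the coactivator *Maml1* (0.42, adjusted p = 0.0241) rose. Of 3 tested genes that descend from retrotransposon Gag sequences as *Rtl1* does, 1 was called between the series, *Pnma2*, which rose by 1.22 (SE 0.27, adjusted p = 0.0151).

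Over the 8 clones, the records most like *Meg3* by Pearson's r of log2 counts, among those with a mean of at least 50 counts, included *Cdk14* (a cyclin-dependent kinase, r = 0.991), *Kcnab1* (a potassium channel subunit, 0.990), *Anxa1* (annexin A1, 0.989) and *Pnp* (purine nucleoside phosphorylase, 0.988). *Rian* had 0.962, and 135 of 11111 records outside the cluster had a higher value. *Rtl1* had 0.889, *Mirg* 0.884 and *Dio3* 0.429, with 728, 781 and 3655 such records above them. These values describe 8 libraries that fall into sets by series, so they carry no test. For *Rtl1* and *Dio3* Pearson's r was 0.48 (exact permutation p = 0.237, n = 8) and Spearman's rho 0.26 (exact permutation p = 0.536), and r was -0.49 without TKO 35 and 37.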

How the data were processed

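RNA from 4 Ctrl and 4 TKO iPSC clones was made into TruSeq libraries and read single-end for 50 cycles. The authors mapped the reads to mm9 transcripts with BWA (0.7.5a in the submitters' processing notes) and deposited whole-number read counts per RefSeq record, without scaling. Symbols came from a RefSeq table (GRCm38.p6), used for names and promoter windows, coordinates from GENCODE vM1 on mm9, and microRNA sequences from RefSeq.

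Records with 5 or more reads in 4 or more libraries (16235 of 27052) were scaled by median-ratio size factors and tested with edgeR 4.0.16 (quasi-likelihood, R 4.3.3), with Benjamini-Hochberg adjustment over all records. Adjusted p-values are from this test unless another is named. Models held genotype, genotype and clone series, or 4 groups. Alternatives were TMM, DESeq2 1.42.0, edgeR's exact test, limma-voom 3.58.1, other filters, records summed per symbol, each series alone and leaving out each clone. The fits within genotype or series from the 4-group model and the ratios within libraries were added after seeing the data. Simulated counts tested the code, and at 2.5-fold 57 of 67 changed records were called between genotypes and 59 of 67 between series. For the interaction it was 33 of 67 at 2.5-fold, and between genotypes 23 of 67 at 1.5-fold. The simulated genotype comparison held no series difference and used the spread within the 4 groups. It therefore does not give the power of the genotype test on these clones.

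Named were all members, the other records of the cluster, up to 4 called genes of each list and the 5 records most like Meg3, and a few results under this rule are left out here. Members and lists were chosen with earlier results of these data known. H19, Tet1, Aff3, Dlk2, Rgag4 and Fam127a of the lists could not be matched to a record by symbol. Precision is limited by the reads per library, 12 to 57 for Rtl1 and 13 to 24 for Dio3.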

Additional observations from a re-analysis of the deposited data

Results flagged for a closer look

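In the series of clones, *Rtl1* lay on opposite sides, lower in both thirties TKO clones and higher in both forties TKO clones than in the Ctrl clones of the same series. The difference of the log2 differences in mean level was 1.17, and the test of this interaction gave an adjusted p of 0.146 by edgeR's quasi-likelihood test, so it did not pass.

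The summed fibroblast markers behaved likewise, with a difference of 1.68 on the log2 scale, and the summed trophoblast markers in the opposite sense, with -2.65. These sums were not tested. The primitive endoderm sum was 695 counts in Ctrl 41, far from the other Ctrl clones (298 to 347), the only such value among 22 sets of samples examined, where chance gives about 1 in 20.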

How the results depend on the processing

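The higher level of *Rian* and *Mirg* in the forties clones kept its direction and its call in all 13 alternatives run, and that of *Meg3* in 12 of 13, the exception being the Ctrl clones within the 4-group model (0.38). In that exception the second-largest *Meg3* record passed (0.58). Without any 1 clone the log2 change ran from 0.62 to 0.88 for *Meg3*, 1.11 to 1.36 for *Rian* and 1.85 to 2.11 for *Mirg*. *Rtl1* passed within TKO clones (1.21) and without Ctrl 34 (range 0.48 to 0.92 over the clones left out), and was 0.02 within Ctrl clones. *Dio3* was 0.77 within TKO clones and -0.83 within Ctrl clones, and ran from -0.29 to 0.29 over the clones left out. Between TKO and Ctrl, *Meg3* (-0.79), *Rian* (-0.73) and *Dio3* (-1.61) passed within the thirties of the 4-group model, as did *Rian* in the thirties clones alone (-0.73). The second-largest *Meg3* record (-0.35) did not pass within the thirties of that model. In the forties the direction changed for *Mirg* (0.044 in the forties clones alone and 0.043 in the 4-group model) and *Rtl1* (0.34 in both), and on leaving out a clone their values ran from -0.46 to 0.23 and from -0.39 to 0.055. The *Meg3* interaction passed with DESeq2 (0.73) and without Ctrl 34 (0.55 to 0.89 over the clones). The cause of these changes was not tested.

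Records called between TKO and Ctrl (39) were 513 with DESeq2, 223 with edgeR's exact test, 926 with the series in the model, 1016 in the thirties and 242 in the forties clones alone, and 15 without Ctrl 41 or TKO 35, 16 without Ctrl 43, 18 without TKO 37, 20 without TKO 47 and 86 without TKO 48. Between the series (3149) they were 3913 with DESeq2 and ran from 1281 (without TKO 35) to 3816 with a clone left out, with 1405 without TKO 37, 2002 without TKO 47 and 2016 without Ctrl 43. For the interaction (211) they were 914 with DESeq2, 1 without Ctrl 41, Ctrl 43 or TKO 35, 2 without TKO 37, 52 without TKO 48, 566 without TKO 47, 715 without Ctrl 34 and 1314 without Ctrl 33. No paired analysis was possible because no clone number occurs in both genotypes. *Dlk1* could not be tested, and *Dio3* and *Rtl1* rest on few reads.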
